A study of Mus musculus with 4 samples.

Results

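Complement is a set of plasma and tissue proteins that tag dying cells and microbes for removal and call in inflammatory cells. C1q starts the classical route, C3 is cleaved at the point where all routes meet, and the fragments C3a and C5a act on receptors carried mostly by myeloid cells. After myocardial infarction (MI) the injured ventricle fills with macrophages, which make C1q, while stromal cells such as fibroblasts can make C3, factor B and C1 inhibitor.

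The 9 genes described here were taken by name: the C1q chains C1qa, C1qb and C1qc, the components C3, C4b and Cfb, the receptors C3ar1 and C5ar1, and the regulator Serping1. They are 9 of 20051 named genes on the array. All 9 were present, with 11 probes, and all passed the filter on dim probes, as did 15048 of the named genes. RNA came from the left ventricle of C57BL/6 mice on day 7 after the left anterior descending coronary artery was tied off for good, a surgery that the methods describe in male mice aged 8 to 10 weeks. KDM5B-KO mice carried a CRISPR/Cas9 deletion that removes sequence for the JmjC domain of the histone demethylase KDM5B and shifts the reading frame, and WT mice were the controls. There were 2 arrays per genotype, called by their label numbers WT 2, WT 3, KO 2 and KO 3. Every array came from an infarcted heart, no sham-operated array was analysed here, and how much infarct and how much remote muscle each piece held was not stated. The labels do not say that each array was a separate mouse, but the 2 arrays of a genotype gave opposite sex-linked signals, as described next, and so did not hold RNA of the same animal.

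Each array measured 41174 probes with 1 dye, of which 68.15% to 72.04% read well above background. Signals were put on the log2 scale with the 75th percentile of each array set to 0, and differences are KO minus WT on that scale. They compare 1 gene between arrays, not genes with each other. Kdm5b, the targeted gene, was 0.996 lower on the log2 scale in KO (limma adjusted p = 0.9999), with log2 values of -0.87 (WT 2), -1.81 (WT 3), -2.40 (KO 2) and -2.26 (KO 3). A second Kdm5b probe differed by -1.19, with values of -2.43, -3.40, -4.35 and -3.86 in the same order. All 4 samples are labelled male, but the brightest probe of Xist, made from the inactive X, gave an unscaled log2 signal of 14.13 (WT 2) and 13.24 (KO 2), against 1.92 (WT 3) and 2.01 (KO 3). Ddx3y, a Y-linked gene, ran the other way, with 2.12 and 1.63 on the arrays numbered 2 and 11.88 and 11.44 on those numbered 3. The arrays numbered 2 thus go against their label, and the differences of the members are therefore also given within each number, where the 2 arrays share the same sex-linked signal. Each number holds 1 array per genotype, so these within-number differences have no replicate check.

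The lists of cell type markers showed how far the 4 pieces of tissue differed. The 14 macrophage genes averaged 2.95 (WT 2), 3.36 (WT 3), 1.81 (KO 2) and 3.62 (KO 3), and their summed signal ran from 200.6 times the array's 75th percentile on KO 2 to 498 times on KO 3. The 12 cardiomyocyte genes went the opposite way, with averages of 6.54, 5.35, 7.60 and 4.53 in the same order and sums between 604.2 on KO 3 and 3575 on KO 2. The 10 fibroblast genes averaged 5.31, 5.46, 4.50 and 5.31, with sums between 805.2 on KO 2 and 1273 on WT 2. All markers of these 3 lists were well above background on every array. The list of 7 genes of the liver, a main source of plasma complement, left 2 that passed the filter on dim probes. Alb, Apoa1, Fgb and Ttr did not pass it. The 2 that passed, Apoa2 and Ahsg, were well above background on every array. Apoa2 read -4.41 (WT 2), -4.80 (WT 3), -4.40 (KO 2) and -5.23 (KO 3), and Ahsg read -2.49, 0.69, -0.05 and -0.15. KO 2 was therefore the array with the least macrophage and fibroblast signal and the most cardiomyocyte signal. In bulk tissue, fewer cells of a type and less RNA per cell cannot be told apart.

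The probes behind 5 of the members are shown because their values rest on which transcript a 60-base probe can bind. C1qa and C1qb lie close together on chromosome 4 and encode related chains, C4b has a close relative in C4a, and the probes of Cfb and Serping1 span more genome than their own length, as a probe across an exon junction does. Coordinates are those of the array files on mm9, and all 5 transcripts lie on the minus strand, at chr4:136452409-136452468 for C1qa, chr4:136436578-136436637 for C1qb, chr17:34866361-34866420 for C4b, chr17:34993502-34993858 for Cfb and chr2:84605968-84607474 for Serping1. No annotation of mm9 was used here, so their place in exons was not determined.
C1qa probe: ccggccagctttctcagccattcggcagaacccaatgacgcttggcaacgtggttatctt
C1qb probe: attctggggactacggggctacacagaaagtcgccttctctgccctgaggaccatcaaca
C4b probe: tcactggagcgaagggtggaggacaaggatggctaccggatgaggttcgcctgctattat
Cfb probe: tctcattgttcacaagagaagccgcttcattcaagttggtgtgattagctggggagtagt
Serping1 probe: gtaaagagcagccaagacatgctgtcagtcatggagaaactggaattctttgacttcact
The C1qa and C1qb probes share no run longer than 5 bases, and the longest run shared by probes of any 2 different members was 8 bases. The C4b probe carries the accessions of 2 genes in the array files, C4b and C4a, so its values may hold signal of both.

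No member passed the test, and the limma adjusted p was 0.9999 for each. limma with Benjamini-Hochberg adjustment over 28304 probes called 0 of the 11 member probes, as it called 0 of all probes (0%) under the thresholds of 0.05 for the adjusted p and 2 for the fold. At an unadjusted p under 0.05 it passed 0 of the 9 genes, against 215 of all 15048 tested genes (1.43%). The mean of KO was nonetheless below that of WT for 9 of 9 members, a direction that 44.9% of all tested genes had. The median difference (KO minus WT, log2) was -0.55 over the 9 members and 0.04 over all tested genes, and 0 of 9 members differed by over 2-fold, against 3.49% of all genes. KO 2 was the lowest of the 4 arrays for 9 of 9 members (39.9% of all genes). Without it the median difference was 0.59, with C1qa, C1qb, C1qc, C3ar1 and C5ar1 above 0 and C3, C4b, Cfb and Serping1 below. Without KO 3 the median difference was -1.37. Within number 2 all 9 members were lower on KO 2 than on WT 2 (46.5% of all genes), the median difference was -1.04, and 7 of 9 were over 2-fold lower on KO 2 (9.37% of all genes). KO 3 was the highest of the 4 arrays for 5 of 9 members (33.2% of all genes), the same 5 that were lower in KO at number 2 and higher at number 3 (28.2%). Within number 3 the median was 0.17, and none was over 2-fold different in either direction (1.77% of all genes were lower and 2.59% higher by that much). An exact permutation test of 2 arrays against 2 cannot give a two-sided p under 0.333, so no single gene can be tested that way.

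**Figure D1:**
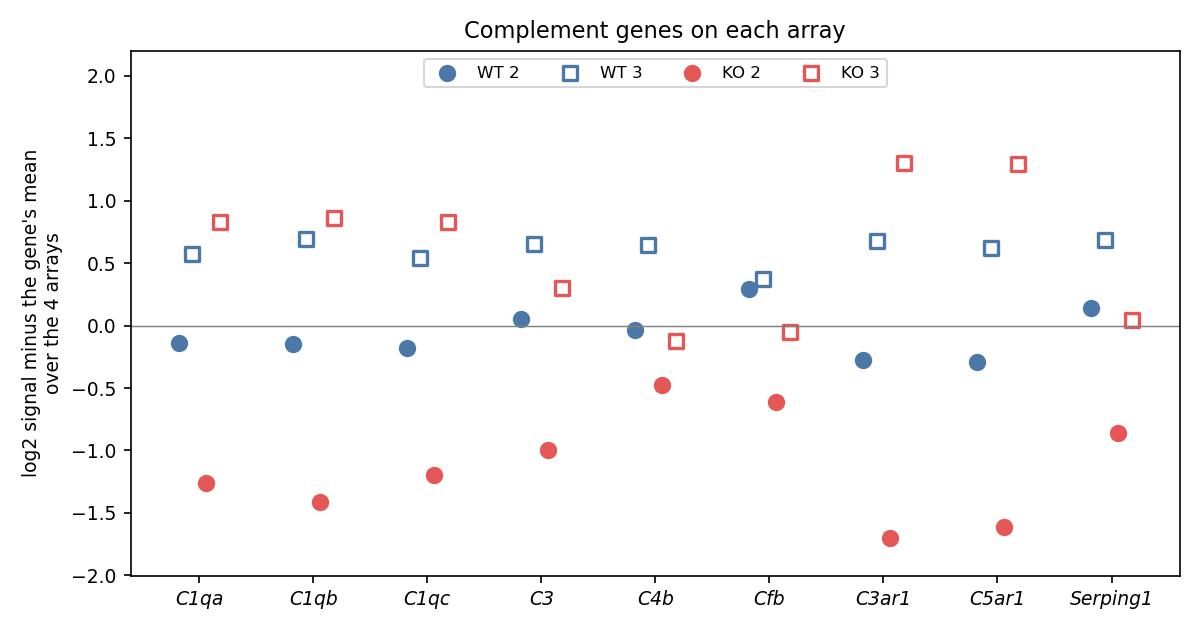
Log2 signal of the 9 complement genes on each array, minus the mean of the gene over the 4 arrays (vertical axis, log2 units). Filled circles are arrays numbered 2 and open squares arrays numbered 3, blue for WT and red for KO. KO 2 is the lowest point for all 9 genes, while KO 3 is the highest for the 3 C1q chains, C3ar1 and C5ar1.

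The C1q chains make up the recognition molecule of the classical pathway and are transcribed mainly in macrophages. C1qa read 4.02 (WT 2), 4.73 (WT 3), 2.90 (KO 2) and 4.99 (KO 3). Its KO array numbered 2 was the lowest and its KO array numbered 3 the highest, so the genotypes overlapped. KO minus WT was -0.43 (SE 0.83, limma adjusted p = 0.9999). C1qb read 3.66, 4.50, 2.40 and 4.67 in the same order, a difference of -0.55 with a standard error of 0.91. C1qc read 4.91, 5.63, 3.90 and 5.92, a difference of -0.36 with a standard error of 0.81. All 3 chains had both KO arrays outside the WT pair, on opposite sides of it. C1qa was 2.17-fold lower on KO 2 than on WT 2 and 1.20-fold higher on KO 3 than on WT 3, and the corresponding folds were 2.41 and 1.12 for C1qb and 2.02 and 1.23 for C1qc. The spread between the KO arrays was the larger quantity, with KO 3 above KO 2 by 4.25-fold for C1qa, 4.84-fold for C1qb and 4.07-fold for C1qc, against 1.64-fold, 1.79-fold and 1.64-fold between the WT arrays.

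The distance of the chains from the macrophage markers varied less over the arrays than the chains themselves did. It was larger on both arrays numbered 3 than on both numbered 2. For C1qa it was 1.07 (WT 2), 1.37 (WT 3), 1.09 (KO 2) and 1.37 (KO 3). In the same order it was 0.71, 1.15, 0.59 and 1.05 for C1qb, and 1.96, 2.27, 2.09 and 2.31 for C1qc. When the average of the macrophage list, which holds no C1q gene, was subtracted on each array, the difference between genotypes was 0.01 for C1qa, -0.11 for C1qb and 0.08 for C1qc. Over the 4 arrays the highest minus the lowest value was 2.09 for C1qa before that subtraction and 0.31 after it, 2.28 and 0.56 for C1qb, and 2.03 and 0.34 for C1qc. Against the fibroblast list the ranges stayed wider, at 1.28 for C1qa, 1.47 for C1qb and 1.22 for C1qc. Within the macrophage list itself, 13 of 14 genes were lower on KO 2 than on WT 2 and 13 of 14 were higher on KO 3 than on WT 3. Its part in the C1q values was not tested.

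C3ar1, the receptor for C3a, and C5ar1, the receptor for C5a on neutrophils and macrophages, had the same order of arrays as C1q and a wider spread. C3ar1 read 0.05 (WT 2), 1.002 (WT 3), -1.38 (KO 2) and 1.63 (KO 3). Its lowest and highest arrays were again both KO, and KO minus WT was -0.40 (SE 1.17, limma adjusted p = 0.9999). A second C3ar1 probe, with values of -1.01, -0.19, -2.85 and 0.51, differed by -0.57. C5ar1 read -4.54, -3.62, -5.86 and -2.95, a difference of -0.32 with a standard error of 1.13. The C5ar1 probe was well above background on both WT arrays and on KO 3 but not on KO 2, so its value there is only a bound. Between the KO arrays C3ar1 differed by 8.01-fold and C5ar1 by 7.49-fold, and between the WT arrays by 1.93-fold and 1.88-fold. Within number 2 the differences were -1.43 for C3ar1 and -1.32 for C5ar1, and within number 3 they were 0.63 and 0.67.

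The receptors had ranges over the 4 arrays of 3.002 for C3ar1 and 2.91 for C5ar1, and 3 of the 14 macrophage markers ranged more widely, with 3.43 for Cd68, 3.06 for Ms4a7 and 3.66 for Trem2. After subtraction of the macrophage list the range was 1.20 for C3ar1 and 1.10 for C5ar1. The 8 neutrophil genes that passed the filter averaged -1.11 (WT 2), -0.66 (WT 3), -3.47 (KO 2) and -0.64 (KO 3). All 8 were lower on KO 2 than on WT 2, and 4 of 8 were higher on KO 3 than on WT 3. Of the 8 neutrophil genes, 5 were well above background on every array. Whether neutrophil RNA had a part in the receptor values was not tested.

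C3, the component on which all 3 routes converge, read 7.28 (WT 2), 7.88 (WT 3), 6.23 (KO 2) and 7.53 (KO 3). KO 3 lay between the WT arrays and KO 2 below all others. KO minus WT was -0.70 (SE 0.56), a fold of 1.62 higher in WT (limma adjusted p = 0.9999). This probe was printed on each array as 10 spots, whose SD lay between 0.02 and 0.06 log2 units. A second C3 probe differed by -0.68, with values of -0.83, -0.23, -2.09 and -0.34. C3 was lower in KO within both numbers, with differences of -1.04 at number 2 and -0.35 at number 3.

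Serping1, Cfb and C4b were the 3 members with both KO values below the lower WT value (8.9% of all tested genes). Serping1 encodes C1 inhibitor, which blocks C1r and C1s, and read 4.75 (WT 2), 5.30 (WT 3), 3.75 (KO 2) and 4.66 (KO 3). Its WT arrays were 1.77-fold higher on average, a difference of -0.82 with a standard error of 0.44 (limma adjusted p = 0.9999). Cfb encodes factor B, which supplies the protease of the alternative C3 convertase, and read 2.27, 2.36, 1.37 and 1.93. The WT arrays of Cfb differed by 0.09, less than its genotypes did, and KO minus WT was -0.67 (SE 0.29). C4b encodes C4, which binds covalently to targets in the classical and lectin routes, and read 0.55, 1.23, 0.11 and 0.46, a difference of -0.60 with a standard error of 0.34. C4b was the only member with a larger difference within number 3, -0.77, than within number 2, -0.44. For Serping1 the values were -0.64 and -1.001, and for Cfb -0.43 and -0.90, at numbers 3 and 2.

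After subtraction of the fibroblast average the range of these 3 genes and C3 over the 4 arrays was 0.35 for Cfb, 0.59 for Serping1, 0.62 for C4b and 0.68 for C3. After subtraction of the macrophage average instead it was 1.24 for Cfb, 0.90 for Serping1, 1.45 for C4b and 0.61 for C3, so C3 stayed about as close to either list. The genotype difference that remained after the fibroblast subtraction was -0.19 for Cfb, -0.34 for Serping1, -0.13 for C4b and -0.22 for C3. It stayed negative within both numbers for Cfb, Serping1 and C3, and had opposite signs for C4b, with 0.36 at number 2 and -0.62 at number 3. All 10 fibroblast genes were lower on KO 2 than on WT 2, and 5 of 10 were higher on KO 3 than on WT 3. The part of the fibroblast genes in these values was not tested.

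**Figure D2:**
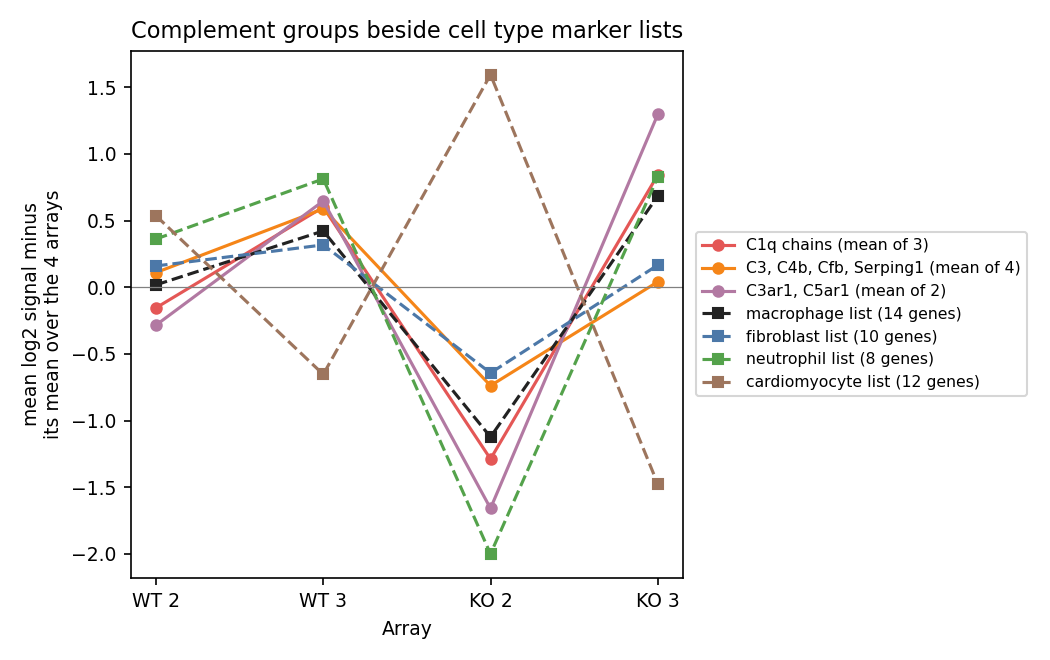
Mean log2 signal of 3 sets of complement genes (solid lines, circles) and 4 cell type marker lists (dashed lines, squares) on each array, each minus its own mean over the 4 arrays. Lines only join the points of 1 set, since the arrays have no order. The C1q chains and the macrophage list follow each other, and the cardiomyocyte list runs the opposite way, highest on KO 2.

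The members thus differed in the shape of their 4 values. As a measure of likeness, each gene's values were centred on their own mean, and the root mean square difference between 2 genes over the 4 arrays was taken, with 15047 other genes ranked for each. C1qa and C1qc lay 0.04 apart, with C1qc at rank 6 from C1qa, while C1qb lay 0.10 from C1qa, at rank 66, and 0.14 from C1qc, at rank 130. C3ar1 and C5ar1 lay 0.05 apart as measured, but the KO 2 value of C5ar1 is a bound and its difference turned to 0.35 with normexp background correction, so this distance has no exact meaning. Serping1 was the member nearest to C3, at 0.15 and rank 115. From Cfb, Serping1 lay at 0.217 (rank 626) and C4b at 0.224 (rank 690). From C4b, Cfb was at rank 321 and Serping1 at 0.228 (rank 351). With 4 arrays that all differ in the same cell markers, this is a description with no test. Among all tested genes the 5 nearest to the mean profile of the C1q chains were Itga4, an integrin subunit of leukocytes, Arrb2, an arrestin, Naip5, a sensor of bacterial flagellin, Kirrel, an adhesion protein, and Tcirg1, a subunit of a proton pump. Their distances ran from 0.02 to 0.04. The 5 nearest to C3 were Ypel2, Cfp, Cys1, Prkar2b and Sept11, at distances from 0.02 to 0.06. Cfp encodes properdin, which stabilizes the C3 convertase of the alternative pathway, and read 3.27 (WT 2), 3.90 (WT 3), 2.28 (KO 2) and 3.58 (KO 3).

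Promoters of 5 of the 9 members were found in the RefSeq table of assembly GRCm38.p6. Windows from 250 bases before to 50 bases after the start were searched on both strands for GAGGAA, a core bound by the myeloid factor PU.1, TTGCNNAA, a C/EBP motif, and TGANTCA, bound by AP-1 and ATF family factors. The motifs are printed because members that share an order of arrays could be compared by sequence, and the study concerns the factor ATF3. Below, the 250 bases before the start are given 5′ to 3′ in the direction of transcription for the 4 promoters with a match, at chr4:136886201-136886450 for C1qb, chr4:136892915-136893164 for C1qc, chr17:57228137-57228386 for C3 and chr6:122856158-122856407 for C3ar1, all on the minus strand. Capitals mark the motif.
C1qb: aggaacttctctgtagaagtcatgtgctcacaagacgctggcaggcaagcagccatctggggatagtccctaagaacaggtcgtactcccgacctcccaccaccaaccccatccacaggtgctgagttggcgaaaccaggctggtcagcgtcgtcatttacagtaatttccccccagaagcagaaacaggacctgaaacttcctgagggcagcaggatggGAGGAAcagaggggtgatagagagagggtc
C1qc: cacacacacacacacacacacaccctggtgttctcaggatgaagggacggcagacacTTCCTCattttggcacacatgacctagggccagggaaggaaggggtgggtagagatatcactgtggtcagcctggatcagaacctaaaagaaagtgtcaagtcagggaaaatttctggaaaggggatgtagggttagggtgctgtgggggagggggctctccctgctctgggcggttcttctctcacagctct
C3: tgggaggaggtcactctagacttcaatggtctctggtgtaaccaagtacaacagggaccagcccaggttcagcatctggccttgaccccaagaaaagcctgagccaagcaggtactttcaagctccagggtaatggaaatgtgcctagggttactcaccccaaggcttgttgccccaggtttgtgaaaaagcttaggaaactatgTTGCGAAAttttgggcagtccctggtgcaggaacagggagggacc
C3ar1: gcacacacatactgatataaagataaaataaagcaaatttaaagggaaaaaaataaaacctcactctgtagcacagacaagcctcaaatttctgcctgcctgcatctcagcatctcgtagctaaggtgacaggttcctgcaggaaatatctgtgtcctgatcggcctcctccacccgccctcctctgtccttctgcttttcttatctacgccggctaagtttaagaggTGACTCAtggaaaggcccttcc
C1qb held GAGGAA starting at base -30 from the start site, and C1qc held it on the opposite strand at -193. C3 held the C/EBP motif at -45 and C3ar1 the AP-1 and ATF motif at -22, while the C5ar1 window held none of the 3. Of 32851 promoter windows of the same length, 28.3% held GAGGAA, 10.8% held TTGCNNAA and 7.81% held TGANTCA. The motifs do not overlap one another in these windows, and a match is a description of letters only. Atf3 itself read 0.37 (WT 2), 0.57 (WT 3), 2.34 (KO 2) and 1.26 (KO 3), with a limma adjusted p of 0.9999.

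**Figure D3:**
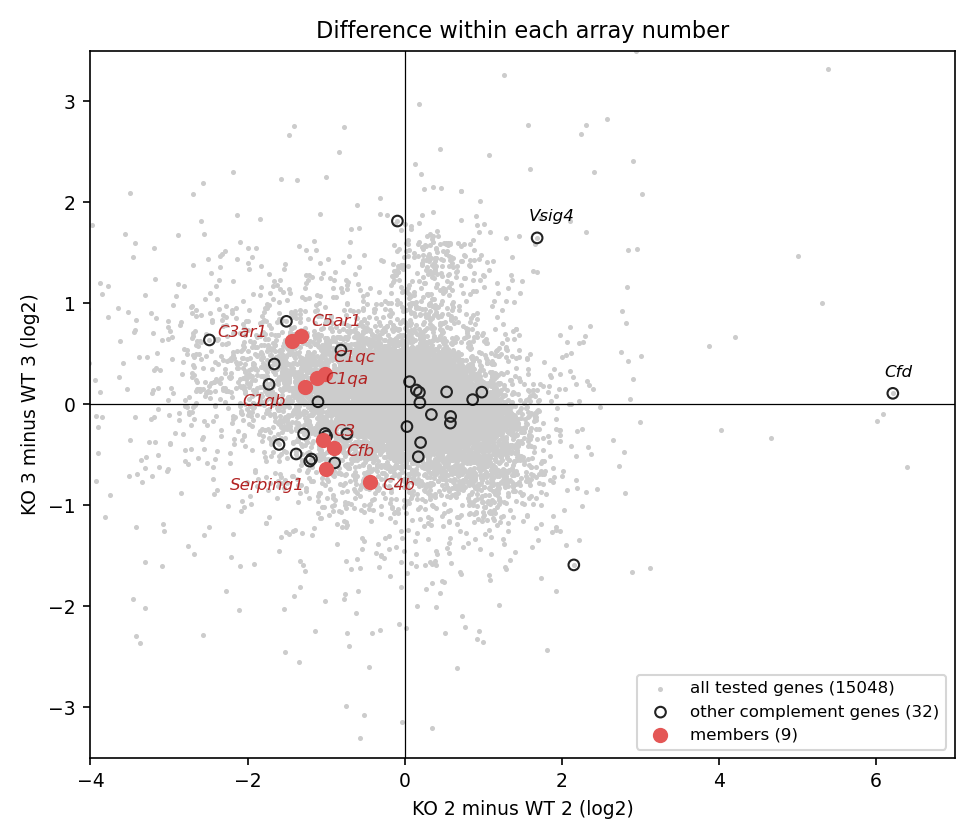
Difference between KO and WT (log2) within the arrays numbered 2 (horizontal axis) and within those numbered 3 (vertical axis) for all tested genes (grey), 32 other complement genes (open circles) and the 9 members (red). All 9 members lie left of zero, 5 of them above and 4 below the horizontal line, and 36 genes lie outside the axes.

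The rest of the pathway was read from a list of 54 further complement genes, of which 46 were on the array and 32 passed the filter. The test called 0 of these 32. By the probe used for each gene, 2 of them (Susd4 and Vsig4) had an unadjusted limma p under 0.05 (1.43% of all tested genes). On average 14 were higher and 18 lower in KO, with a median difference of -0.12, which was -0.03 within number 2 and -0.04 within number 3. For 7 of them both KO values were below the WT pair (8.9% of all tested genes) and for 2, Cd93 and Vsig4, above it (13.3% of all tested genes were above). By size alone, Cfd and Vsig4 were over 2-fold higher (1.15% of all genes) and 0 of the 32 were over 2-fold lower (2.34%).

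Several regulators of complement activation had lower means in KO. Susd4, which encodes a membrane inhibitor of the C3 convertase, read -2.67 (WT 2), -3.04 (WT 3), -4.05 (KO 2) and -3.53 (KO 3). The groups did not overlap, and KO minus WT was -0.94 (SE 0.31, limma adjusted p = 0.9999), with -1.38 within number 2 and -0.49 within number 3. Cd55, decay-accelerating factor, differed by -0.65 and its paralogue Daf2 by -0.79, the latter well above background on 1 of the 2 KO arrays. Clu, or clusterin, which holds back the terminal complex, differed by -0.51. Of the 10 regulators that passed the filter, 6 were lower and 4 higher on average, with a median of -0.31.

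The proteases that C1q carries also had lower means in KO. C1ra, the protease C1r, differed by -0.89 and C1rb by -0.74, and for both genes the KO arrays lay below the WT arrays. C1s, the protease that C1r activates, differed by -0.86 but its groups overlapped. Within number 2 the differences were -1.21 for C1ra, -0.89 for C1rb and -1.19 for C1s, and within number 3 they were -0.56, -0.58 and -0.54. Over the 8 initiation genes, which also include lectin route members, 5 were lower and 3 higher, with a median of -0.13. Hc, the mouse gene of C5, differed by -0.999, with values of -3.58 (WT 2), -4.28 (WT 3), -5.18 (KO 2) and -4.68 (KO 3). The terminal genes left only C7 and C8g, whose median was 0.21, with C7 well above background on 1 of the 2 WT arrays.

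Vsig4, a receptor for C3b and iC3b on resident macrophages, was over 2-fold higher in KO by its mean. It read -3.78 (WT 2), -4.72 (WT 3), -2.09 (KO 2) and -3.07 (KO 3), so the groups did not overlap and KO was the higher. KO minus WT was 1.67 (SE 0.53), or 3.17-fold (limma adjusted p = 0.9999), and it was 1.69 within number 2 and 1.65 within number 3. The integrin subunits of the iC3b receptors were, like C3ar1, lower in KO at number 2 and higher at number 3. Itgam differed by -1.51 within number 2 and 0.82 within number 3, Itgax by -2.49 and 0.64, and Itgb2 by -1.66 and 0.40. Of the 8 receptors, 4 were higher and 4 lower on average.

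Cfd, which encodes factor D, the protease that cleaves factor B and is made in quantity by fat cells, had the largest mean difference of the list at 3.16. It came from KO 2 alone: the values were -3.78 (WT 2), -5.55 (WT 3), 2.43 (KO 2) and -5.44 (KO 3). The standard error was 2.95 and the limma adjusted p was 0.9999. Within number 3 the difference was 0.11. Of 6 adipocyte genes that were chosen after this value was seen (Adipoq, Plin1, Cidec, Retn, Lep and Fabp4), 3 passed the filter. Cidec, a lipid droplet protein of fat cells, read -5.04, -5.25, -0.83 and -4.58 in the same order of arrays, and Fabp4, which endothelial cells also express, read 6.20, 6.40, 7.41 and 5.89. Retn read -5.95, -5.88, -4.39 and -5.44, and was well above background on both KO arrays but on neither WT array. The filter asks for both arrays of a group, so a gene high on KO 2 alone could fail it. The part of fat tissue in the Cfd value was not tested.

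**Figure D4:**
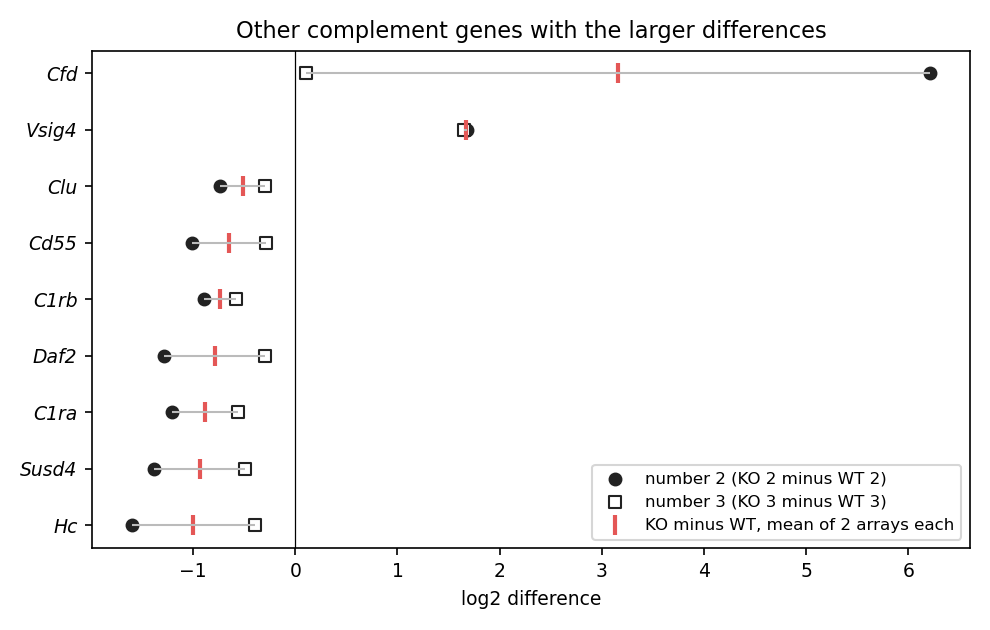
Differences between KO and WT (log2, horizontal axis) for the 9 other complement genes named by size or by groups that do not overlap. Circles are the difference within number 2, squares that within number 3 and red bars the difference of the means of 2 arrays each. Cfd is 6.21 higher at number 2 and 0.11 higher at number 3, while Vsig4 is 1.69 and 1.65 higher.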

How the data were processed

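Left ventricular RNA was hybridised to 4 Agilent 1-colour arrays, 2 WT and 2 KDM5B-KO. The authors deposited scanner output with 1 processed intensity per spot, made with Agilent Feature Extraction 10.7 (submitters' processing notes), background-subtracted and detrended per the file headers. They also deposited a table of log2 values whose normalization is not given in the sources used here, and 99.9% to 99.96% of an array's values were equal, within 0.01, to its log2 signal after quantile normalization.

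Outlier spots (92 to 116 per array) were left out, spots of 1 probe were averaged, and no spot was saturated. The log2 processed signal was shifted by each array's 75th percentile (607.6 to 976.1). A probe was tested when well above background on both arrays of a group, which kept 28304 probes, with 12864 too dim and 6 lacking a value. The 2 genotypes were fitted with limma 3.58.1 under R 4.3.3 (lmFit, then eBayes), and p-values were adjusted by Benjamini-Hochberg. The size of the fitted differences was checked on simulated data with less spread than these arrays have. That check does not show how often a true difference would be called here. A gene's value is that of its tested probe with the highest mean. Probes were named from the files and RefSeq symbols, 31437 directly and 2234 by an older symbol or a name in the gene lists used here. Other complement genes were named at a log2 difference over 1, or over 0.5 where the groups did not overlap. Some complement genes are not reported here. The genes and lists were chosen with earlier results of these data known. Groups and numbers came from the sample titles. The number of arrays limits the precision. Alternatives covered normalization, background, filters, the authors' values, a block for array number, variance models, probe averaging and each array left out.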

Additional observations from a re-analysis of the deposited data

Results flagged for a closer look

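For 5 of the 9 complement genes the KO array was lower than the WT array at number 2 and higher at number 3. The differences (KO minus WT, log2) at number 2 were -1.11 for C1qa, -1.27 for C1qb, -1.02 for C1qc, -1.43 for C3ar1 and -1.32 for C5ar1. At number 3 they were 0.26 for C1qa, 0.17 for C1qb, 0.30 for C1qc, 0.63 for C3ar1 and 0.67 for C5ar1. Each number holds 1 array per genotype, so the difference between the numbers was not tested, and 28.2% of all tested genes had this pair of signs.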

How the results depend on the processing

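In the planned limma settings with all 4 arrays, 0 probes were called after adjustment, and the members' median difference stayed between -0.63 and -0.52. The methods' t-test gave 88 probes at an unadjusted p under 0.05 with a fold over 2, and 0 after Benjamini-Hochberg. C5ar1 turned to 0.35 with normexp background correction. Leaving out 1 array at a time called 0 probes, but the median ran from -1.37 to 0.59 and was above 0 without KO 2, the number of members past 2-fold from 0 to 7, and the number of other complement genes past 2-fold from 2 to 19, against 2 with all arrays. Those ranges were -1.47 to 0.62 for C1qa, -1.69 to 0.59 for C1qb, -1.37 to 0.65 for C1qc, -1.90 to 1.10 for C3ar1 and -1.78 to 1.13 for C5ar1, the last 2 above 0 also without WT 3 (0.07 and 0.13). C3 (-1.34 to -0.05), C4b (-0.94 to -0.27), Cfb (-0.95 to -0.39) and Serping1 (-1.27 to -0.37) stayed below 0. Without KO 3, which left 1 KO array, the median difference of the members was -1.37. The counts past 2-fold with 1 array left out have no share over all genes beside them, so they do not single out the members. In settings chosen after seeing the data, number 2 alone gave 7 members and 14 other genes past 2-fold, number 3 alone turned the median to 0.17, and subtracting the macrophage or fibroblast list left -0.11 and -0.07. With the array number as a replicate block, 0 probes were called and the lowest adjusted p was 0.9949. Deviations from the group means correlated between same-numbered arrays (r = 0.57, a single quantity, since with 2 arrays per group the deviations of number 2 and number 3 mirror each other), and neither this nor the labels show a pairing.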
